A study of Mus musculus with 4 samples.

Results

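Broad CHD8 domains are stretches of 2500 bp or more over which the anti-FLAG ChIP signal of mouse embryonic stem cells was enriched without a gap long enough to end a peak. They were chosen by their width in the replicate 2 peak list: autosomal peaks of at least 2500 bp that overlapped a replicate 1 peak by 1 bp or more. This gave 490 domains among 31002 replicate 2 peaks, or among 30491 on the 19 autosomes. All 490 autosomal peaks that reached the width had a replicate 1 partner, so the overlap condition removed none. The comparison set below is the 18543 autosomal replicate 2 peaks with a replicate 1 partner, here called partnered peaks, which include the domains. The replicate 1 list held 22706 peaks.

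The cells carried a 3xFLAG tag at the C terminus of both endogenous copies of the CHD8 gene and were grown on gelatin in 2i medium. The labels name 2 ChIP samples, made with the antibody Sigma ANTI-FLAG M2, and 2 input samples without antibody, all from the same kind of cell and with no second condition. The labels do not say whether the replicates came from separate cultures or clones. No ChIP of untagged cells was analysed here, so signal that the antibody gives without tagged CHD8 cannot be told apart. Each ChIP sample gave 1 peak list, and the lists gave back a genome-wide level of 3.44 (replicate 1) and 3.56 (replicate 2) ChIP reads for every 200 bp.

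CHD8 is a chromatin remodeller of the CHD family, which uses ATP to move or alter nucleosomes, and loss of a single copy in people is linked to autism. It is known to bind mainly at promoters of active genes and at some enhancers. A peak caller reports 1 interval wherever neighbouring positions pass its threshold, and it joins such positions across short gaps. A wide peak can therefore be a long even stretch of binding or several close sites whose signals run together. In both lists no pair of neighbouring peaks lay closer than 77 bp. No gene annotation or sequence of the build of the files, mm9, was used here, so domains are named by position, 1-based, and none is assigned to a gene.

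The domains were the upper end of a continuous range of widths. Between 2000 and 2499 bp there were 842 partnered peaks, between 2500 and 2999 bp 301, between 3000 and 3499 bp 104, and 85 were of 3500 bp or more. The median domain was 2877 bp wide (quartiles 2645 and 3294) and the widest 6245 bp, against a median of 850 bp over all partnered peaks. Domains made up 1.61% of the autosomal replicate 2 peaks and 6.66% of their length, 1.51 of 22.6 Mb. The narrowest domain, of 2500 bp, lay on chromosome 17 at 17760304 to 17762803 and had fold enrichments of 9.46 in replicate 1 and 10.96 in replicate 2. The next narrowest were of 2502 bp, on chromosome 14 at 28240971 to 28243472 and on chromosome 11 at 33061586 to 33064087, with replicate 2 folds of 12.6 and 7.93. The widest partnered peaks under the threshold were of 2499 bp on chromosome 8 at 107812729 to 107815227, 2497 bp on chromosome 15 at 85863082 to 85865578 and 2496 bp on chromosome 13 at 104709466 to 104711961. Their replicate 2 folds were 8.52, 9.75 and 8.54, within the range of the domains. The peak on chromosome 13 was covered over its whole length by a replicate 1 peak of 2622 bp.

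**Figure D1:**
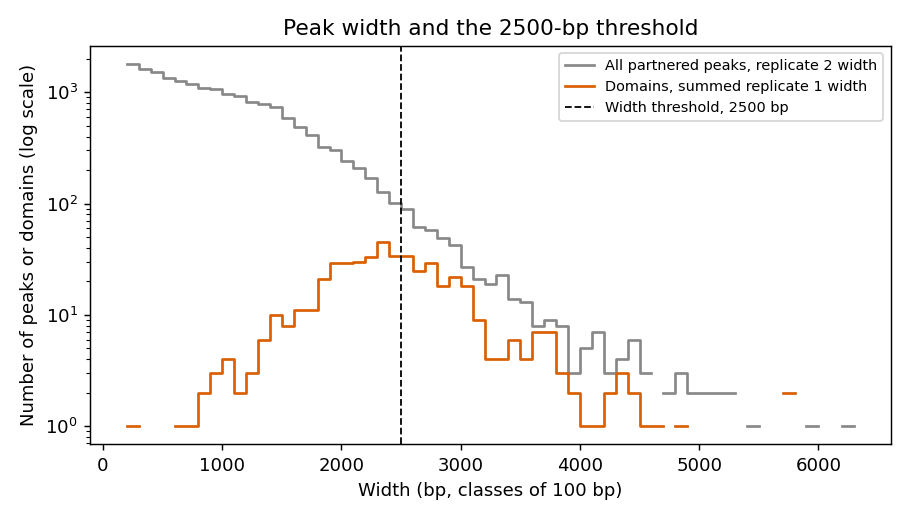
Number of partnered replicate 2 peaks (grey, by replicate 2 width) and of domains (orange, by the summed width of the replicate 1 peaks that overlap them), in classes of 100 bp, on a log scale. The grey line falls through 2500 bp without a step, and the domains spread to both sides of that width in replicate 1, with a median of 2379 bp.

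Replicate 1 showed the domains as wide stretches too, but shorter ones. Its width took no part in the choice of members beyond the 1-bp overlap. The replicate 1 peaks that overlapped a domain had a median summed width of 2379 bp (95% order-statistic interval of the median 2338 to 2440), against 702 bp at all partnered peaks. A single replicate 1 peak reached 2500 bp at 135 of the 490 domains, 27.6% (95% Wilson interval 23.8 to 31.7). Among all partnered peaks that share was 0.987%. From the first to the last overlapping replicate 1 peak, the span reached 2500 bp at 251 domains, 51.2%, against 1.74% of partnered peaks. At 28 domains, 5.71%, the widest replicate 1 peak was under 1000 bp, against 71.0% of partnered peaks, whose median replicate 2 width was 850 bp. At 4 domains, 0.816%, it was under 500 bp, against 38.1%. All intervals of shares and read numbers here cover counting error only, and no test was made, since each replicate gave 1 list and the labels give 1 condition.

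Most of each domain lay under replicate 1 peaks, and what did not lay mostly at the edges. The median domain was covered over 81.2% of its length (interval of the median 79.6 to 82.8), and the median partnered peak over 75.4%. At least 50% of the length was covered at 463 domains, 94.5%, against 81.2% of partnered peaks. All of the length was covered at 9 domains, 1.84%, against 8.51% of partnered peaks. Summed over the domains, 78.0% of the length was covered, 16.4% was uncovered at the edges and 5.604% lay in gaps between replicate 1 peaks. Replicate 1 peaks reached beyond an edge at 166 domains, 33.9% against 56.7% of partnered peaks. At 56 domains, 11.4%, their span was wider than the domain itself. That share was not computed for partnered peaks, and the domains were chosen for their replicate 2 width. Coverage was at a similar level from 1500 bp of width upwards: the median was 79.96% at 1500 to 1999 bp, 80.5% at 2000 to 2499 bp, 81.9% at 2500 to 2999 bp, 81.5% at 3000 to 3499 bp and 79.9% above. Across the 490 domains, the replicate 2 width and the summed replicate 1 width had a Spearman's rho of 0.61, against 0.75 across the partnered peaks. Both are descriptions over regions of the same pair of libraries.

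**Figure D2:**
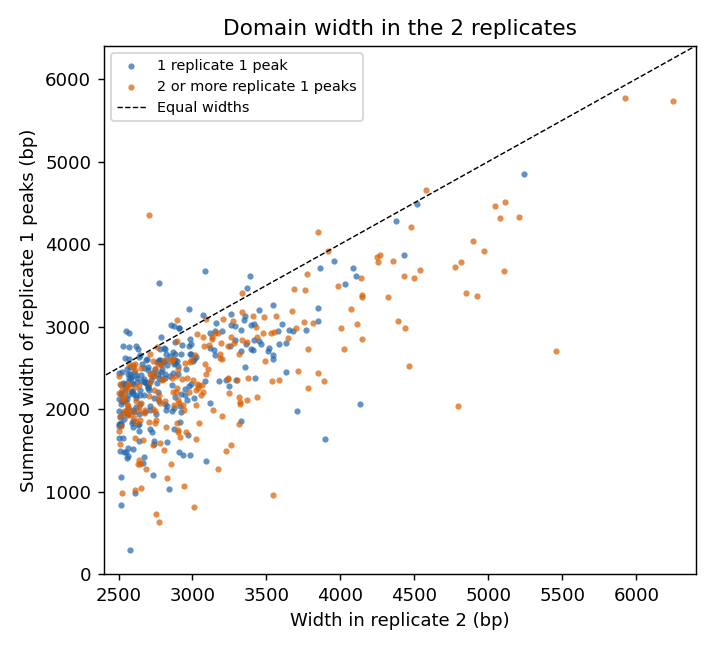
Replicate 2 width (x axis, bp) against the summed width of the overlapping replicate 1 peaks (y axis, bp) for each of the 490 domains, coloured by whether 1 or several replicate 1 peaks overlap it. Most points lie below the dashed line of equal widths, and the summed replicate 1 width exceeded the replicate 2 width at 27 domains.

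Wide peaks of replicate 1 led back to the same places. Of the 155 autosomal replicate 1 peaks of 2500 bp or more, 135 overlapped a domain, which is 87.1%, and all 155 overlapped some replicate 2 peak. When the 490 widest autosomal replicate 1 peaks were taken instead, with a smallest width of 2023 bp, 275 overlapped a domain, 56.1% of either list. The other wide replicate 1 peaks thus met replicate 2 peaks under 2500 bp or none. Of the 22706 replicate 1 peaks of any width, on all chromosomes, 837 overlapped a domain.

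About as many domains were a single peak in replicate 1 as were broken into several. A single replicate 1 peak overlapped 261 domains, 2 overlapped 148, 3 overlapped 56, 4 overlapped 15, 5 overlapped 8 and 6 overlapped 2. Several replicate 1 peaks were thus found at 229 domains, 46.7% (42.4 to 51.2), against 11.2% of all partnered peaks. A longer interval can meet more peaks by its length alone. Per kb of summed length the domains met 0.556 replicate 1 peaks against 1.14 for the partnered peaks. Every partnered peak meets at least 1 by definition, which raises the value per kb of short peaks. That comparison therefore cannot correct for length. Within the domains the share met by several was 36.5% at 2500 to 2999 bp, 58.7% at 3000 to 3499 bp and 68.2% above. Seen the other way, 16.1% of the replicate 1 peaks of 2500 bp or more were met by several replicate 2 peaks.

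The breaks were short. Each listed peak carries 1 summit, so a broken domain has several replicate 1 summits by construction. The 347 gaps between neighbouring replicate 1 peaks within domains had a median of 172 bp (interval of the median 157 to 189), from 77 to 1581 bp. Of these gaps, 205 or 59.1% were at most 200 bp, and 314 or 90.5% at most 500 bp. The outermost replicate 1 summits of a broken domain lay a median of 1607 bp apart, with quartiles of 1152 and 2184 bp. Broken domains had lower values than unbroken ones in both lists, which was not tested. Their median fold enrichment was 7.86 in replicate 1 and 9.35 in replicate 2, against 9.57 and 11.8 at unbroken domains. When the domains were ranked by replicate 2 fold, 61.3% (53.7 to 68.5) of the lowest 163 were broken, 50.3% (42.7 to 57.9) of the middle 163 and 28.7% (22.3 to 36.0) of the highest 164. In the same order, the median share covered by replicate 1 was 72.9%, 80.2% and 86.9%. Median widths in these groups were close, at 2913, 2858 and 2814 bp.

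The most replicate 1 peaks, 6, were found at 2 domains, and 5 were found at 8. Named here are the pair with 6 and the 3 widest of the 8. On chromosome 10 at 79512911 to 79517448, 6 replicate 1 peaks, the widest of 1257 bp, covered 80.9% of the domain, with folds of 6.35 in replicate 1 and 4.02 in replicate 2. The control coverage at the replicate 2 summit there was 2.36 times its genome-wide level, against 1.13 times in replicate 1. Those levels were 2.55 reads per 200 bp in replicate 2 and 3.44 in replicate 1, so a few control reads set these ratios. Folds of the lists are not on 1 scale, and the depth-normalised summit ratio of replicate 2 to replicate 1 was 1.22. The part of control coverage in the replicate 2 fold was not tested. On chromosome 13 at 35829791 to 35834229, another 6 covered 63.6%, and the best summits of the replicates lay 3283 bp apart. The 3 widest with 5 replicate 1 peaks lay at 23607075 to 23611540 of chromosome 13, 114470409 to 114474517 of chromosome 9 and 100371575 to 100375465 of chromosome 6. Their coverage was 56.6%, 73.9% and 55.7%.

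The 10 widest domains ran from 4970 to 6245 bp, and 9 of them were broken in replicate 1. The widest lay on chromosome 17 at 34254135 to 34260379. Replicate 1 covered 91.8% of it, nearly all with 1 peak of 5470 bp, the widest replicate 1 peak at any domain. Its fold enrichment was 15.2 (95% exact Poisson interval 12.2 to 18.7) in replicate 1 and 18.4 (14.9 to 22.6) in replicate 2. Folds of the 2 lists are not on 1 scale. After division by depth, the ratio of its summit reads, replicate 2 to replicate 1, was 0.987. The summits rested on 88 and 90 reads but stood 2453 bp apart, so the highest points differed in position, while the spans were 5842 and 6245 bp. The second, on chromosome 8 at 87183787 to 87189707, was 5921 bp wide and 96.9% covered by a pair of replicate 1 peaks of 3972 and 1793 bp, with the best summits 10 bp apart. Its folds were 8.10 (6.34 to 10.2) and 12.5 (10.03 to 15.4), over control coverage of 2.26 times the genome-wide level in replicate 1 and 1.57 times in replicate 2.

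The third widest was the least covered of the 10 in replicate 1. On chromosome 18 at 75406965 to 75412419, a replicate 2 domain of 5455 bp met 4 replicate 1 peaks of 404 to 1229 bp that covered 49.6% of it, with folds of 4.27 (2.80 to 6.27) and 7.73 (5.53 to 10.6). The fourth, on chromosome 1 at 88420667 to 88425907, was the only one of the 10 that was a single peak in both lists, 5241 bp in replicate 2 and 4846 bp in replicate 1. Its folds were 13.3 in replicate 1 and 13.05 in replicate 2, and its summits lay 96 bp apart. On chromosome 3 at 34546789 to 34551992, a domain of 5204 bp had 4 replicate 1 peaks over 81.8% of its length and folds of 6.31 and 7.39. On chromosome 11 at 97520719 to 97525830, 5112 bp were covered to 88.2% by 4 replicate 1 peaks, with folds of 11.9 and 9.89. Chromosome 7 held a pair, at 140311974 to 140317076 and 30765574 to 30770652, covered to 71.9% and 79.8%. At the former the best summits lay 2125 bp apart: the best replicate 1 peak was the middle one of 3, and the replicate 2 summit lay 106 bp from the summit of another. The last 2 were on chromosome 6 at 64970878 to 64975919 and chromosome 8 at 91564630 to 91569599, covered to 88.6% and 78.9%.

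**Figure D3:**
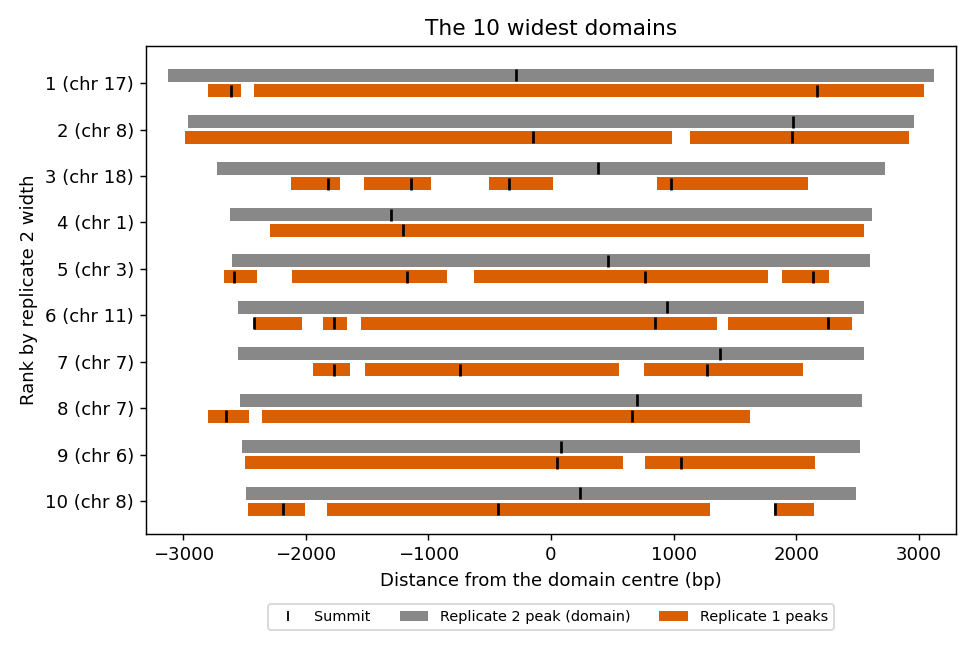
The 10 widest domains, by rank of replicate 2 width, drawn as distance from the domain centre in bp: the replicate 2 peak (grey), the overlapping replicate 1 peaks (orange) and each peak's summit (black tick). The fourth is 1 peak in both replicates, the third is 4 separate pieces in replicate 1, and the summits of the first stand far apart.

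Most domains lay among the stronger partnered peaks of replicate 2. The widths and the significance in replicate 2 come from the list that chose the members, so these values are a description. The fold enrichment of the domains in replicate 2 had a median of 10.47 (quartiles 8.34 and 13.7) and ran from 3.88 to 36.7, against a median of 5.90 at all partnered peaks. Across all partnered peaks, width and replicate 2 fold had a Spearman's rho of 0.72, but across the 490 domains it was −0.07, and −0.09 with the replicate 1 fold. The domains span a narrow part of the width range, which can lower a correlation, and its part here was not tested. By width class the median replicate 1 fold was 6.08 at 1000 to 1499 bp, 7.34 at 1500 to 1999 bp, 8.56 at 2000 to 2499 bp, 8.81 at 2500 to 2999 bp, 8.56 at 3000 to 3499 bp and 8.11 above. It thus stopped increasing near the threshold. Of the 490 partnered peaks with the highest −log10 q in replicate 2, 60 were domains, 12.2% of either list, while domains made up 2.64% of the partnered peaks. The strongest 20% of partnered peaks by replicate 2 −log10 q held 341 domains, 69.6% of them.

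**Figure D4:**
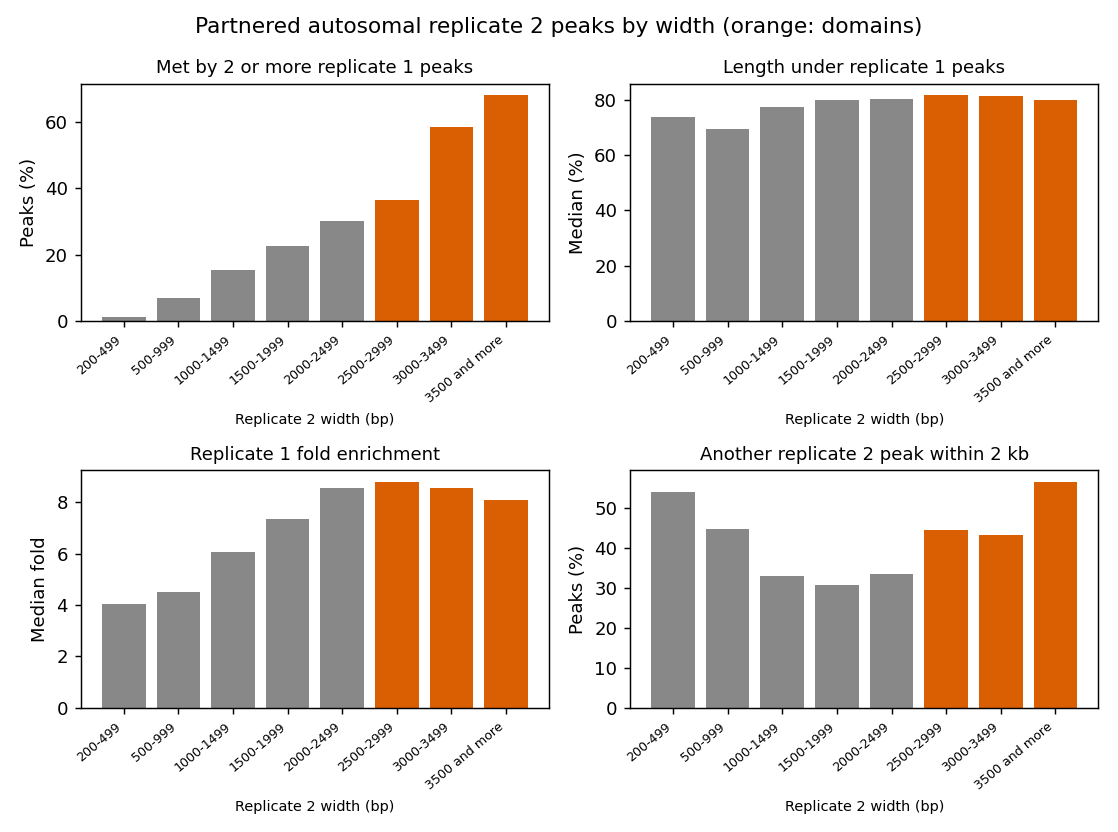
Partnered autosomal replicate 2 peaks in 8 classes of replicate 2 width (x axis, bp; orange classes are the domains): the percentage met by several replicate 1 peaks, the median percentage of length under replicate 1 peaks, the median replicate 1 fold enrichment and the percentage with another replicate 2 peak within 2 kb. The first measure increases over all classes to 68.2%, coverage stays near 80% from 1500 bp, the fold levels off near 8 to 9, and close neighbours are least frequent at 1500 to 1999 bp.

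In replicate 1 the domains had a median fold enrichment of 8.69 (interval of the median 8.33 to 9.01), from 3.37 to 43.9, against 4.96 at all partnered peaks. Their best replicate 1 peaks rested on a median of 40 summit reads and their replicate 2 summits on 55, against 23 and 30 at the partnered peaks. When the partnered peaks were divided into 5 equal groups by replicate 1 −log10 q, the strongest group held 322 domains, 8.68% of its members and 65.7% of the domains. The next held 118, then 40 and 10, and the weakest held 0 of its 3709 peaks, which allows a share of up to 0.0809%. The summit read numbers of the replicates had a Spearman's rho of 0.92 across the domains, against 0.80 across the partnered peaks. For the folds of the replicates the values were 0.78 and 0.70.

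The 5 domains with the highest replicate 1 fold were 2572 to 3542 bp wide, and none was among the 10 widest. The highest replicate 1 fold belonged to a domain of 2572 bp on chromosome 19 at 3766850 to 3769421, where replicate 1 gave 43.9 (38.0 to 50.5) against 36.7 (31.6 to 42.5) in replicate 2. A single replicate 1 peak covered 92.4% of it. Next came chromosome 1 at 84834528 to 84837331, 2804 bp wide, with folds of 29.7 and 27.1, and chromosome 6 at 67215948 to 67219277, 3330 bp wide, with 26.9 and 25.9. The fourth, on chromosome 16 at 23106804 to 23109958, had 26.8 and 23.1 and was met by 2 replicate 1 peaks. The fifth, on chromosome 10 at 79315295 to 79318836, was 3542 bp wide, had 25.2 and 26.9, and was covered to 73.5%. In these 5 domains the summits of the replicates lay 41 to 103 bp apart.

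The 5 domains with the lowest replicate 1 −log10 q were covered to 11.4% to 41.3%. On chromosome 9 at 96383389 to 96385967, a domain of 2579 bp met 1 replicate 1 peak of 295 bp, which covered 11.4% and rested on 16 reads, though the summits lay 4 bp apart. On chromosome 16 at 22397647 to 22401190, 3 peaks covered 27.1% of 3544 bp, and on chromosome 5 at 53933303 to 53936053, 3 peaks covered 26.6% of 2751 bp. On chromosome 18 at 35203002 to 35205777, 2 peaks covered 22.9%, and on chromosome 2 at 93766272 to 93769101, 2 covered 41.3%. Replicate 1 folds at the 5 were 3.37 to 4.28 and replicate 2 folds 5.07 to 7.33. A low fold did not always go with low coverage: on chromosome 17 at 45593090 to 45596019, a domain chosen after its values were seen had a replicate 1 fold of 3.96 and was 94.6% covered. In all, 2 domains were covered to less than 25%, those on chromosomes 9 and 18. They were 0.408% of the domains, against 4.12% of partnered peaks.

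The highest point of a domain was found again within 100 bp at 239 domains, 48.8% (44.4 to 53.2), close to the 49.9% of all partnered peaks. Between the best summits the median distance was 106 bp (interval of the median 92.0 to 124), against 101 bp at all partnered peaks. They lay over 1000 bp apart at 37 domains, 7.55% (5.53 to 10.2), against 1.19% of partnered peaks. A replicate 1 summit can lie outside the replicate 2 peak, so narrow peaks can also show such a distance. At 200 to 499 bp of width the share was 1.15%, and at 500 to 999 bp it was 0.690%. In the width class just below the domains, 2000 to 2499 bp, the share was 3.33%; within the domains it was 2.99% at 2500 to 2999 bp, 13.5% at 3000 to 3499 bp and 16.5% above. By strength it was 12.9% in the lowest 163 domains, 7.36% in the middle 163 and 2.44% in the highest 164. The replicate 2 summit was off centre by a median of 29.7% of the half-width, and it lay in the central 50% of the domain at 379 domains, 77.3%, against 80.6% of partnered peaks. It lay in the outer 20% at 10 domains, 2.04% (1.11 to 3.72), against 1.49% of partnered peaks.

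After division by depth, the summit held more reads in replicate 2 at 458 domains, 93.5% (90.9 to 95.3), against 86.1% of partnered peaks. The replicate 2 summit is that of the list whose width chose the members. The median ratio of replicate 2 to replicate 1 was 1.26 (interval of the median 1.24 to 1.28) at the domains and 1.24 at the partnered peaks. It was 1.29, 1.32 and 1.16 in the low, middle and high groups of the same ranking by replicate 2 fold.

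Control coverage is the local background of the caller, recovered from each peak's fold and p-value. The genome-wide background was 3.44 reads per 200 bp in replicate 1 and 2.55 in replicate 2. Differences of a few control reads per 200 bp therefore set the ratios given here. It exceeded the genome-wide level at the replicate 2 summit of 183 domains, 37.3% (33.2 to 41.7), against 42.2% of partnered peaks. In replicate 1 it did so at 211 domains, 43.1%, against 47.5%. It was at 2 or more times that level in 1 replicate or the other at 18 domains, 3.67% (2.34 to 5.73), against 2.43% of partnered peaks, and in both at 1. In replicate 2 alone it was so at 14 domains, 2.86% (1.71 to 4.74), against 1.47%. The highest value at a domain was 3.14 times the level in replicate 2 and 2.54 times in replicate 1.

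Further peaks lay close to domains about as often as to partnered peaks in general. Another replicate 2 peak lay within 2 kb of 227 domains, 46.3% (42.0 to 50.8), against 42.4% of partnered peaks, and within 500 bp of 165, 33.7% against 33.2%. Among replicate 2 peaks with at least the median score, the share of domains with a neighbour within 2 kb was 23.3%. All 490 domains were kept there, so leaving out other peaks can only lower their share. The share of partnered peaks, which lose members too, was not computed there. By width class the share with a neighbour within 2 kb was 54.0% at 200 to 499 bp, 30.6% at 1500 to 1999 bp, 33.4% at 2000 to 2499 bp, 44.5% at 2500 to 2999 bp and 56.5% at 3500 bp or more. The 353 peaks within 2 kb of a domain that were no domains themselves had a median width of 408 bp and a median fold of 4.31, against 515 bp and 4.71 over all autosomal replicate 2 peaks. Of them, 45.3% (40.2 to 50.5) had a replicate 1 partner, against 60.8% of autosomal peaks. No other peak lay within 100 kb of 14 domains, 2.86%, against 5.16% of partnered peaks.

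Some domains lay next to each other. Another domain lay within 10 kb of 32 domains, 6.53% (4.66 to 9.07), and within 100 kb of 97, 19.8% (16.5 to 23.6), while the median gap between neighbours was 2154 kb. The 32 domains formed 16 pairs. No share was computed for equally many other partnered peaks, so grouping of domains beyond that of peaks in general cannot be judged. A replicate 2 peak of any width lay within 10 kb of 68.8% of domains and 62.7% of partnered peaks. The closest pair lay on chromosome 9, at 56919424 to 56922515 and 56922870 to 56925510, with a gap of 354 bp, of which replicate 1 peaks covered 8 bp. Together they took up 6087 bp, less than the widest domain. On chromosome 5, 135416976 to 135419483 and 135420810 to 135423564 were 1326 bp apart, with 1 narrower replicate 2 peak between them. On chromosome 2, 168779987 to 168782634 and 168784332 to 168788717 were 1697 bp apart, with folds of 12.8 and 17.2 in replicate 2 and 8.03 and 10.9 in replicate 1. On chromosome 19, 23207492 to 23212009 and 23214344 to 23217818 lay 2334 bp apart, and on chromosome 4, 82150544 to 82153792 and 82156994 to 82159934 lay 3201 bp apart. In the pairs on chromosomes 2 and 19 neither list had a peak in the gap.

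The domains were on every autosome. Chromosome 11 held the most, 52, which is 34.4 per 1000 partnered peaks (26.3 to 44.8), and chromosome 14 the fewest, 9, which is 13.9 (7.32 to 26.2). Over all autosomes the value was 26.4, and the intervals of 18 chromosomes included it; that of chromosome 14 ended just below it. Chromosomes 17, 16, 6 and 10 had 34.1, 33.1, 32.2 and 31.2, and chromosomes 13 and 4 had 17.3 and 18.9. Per Mb, chromosome 11 held 0.438 domains (exact Poisson interval 0.327 to 0.574) and chromosome 14 held 0.0777 (0.0355 to 0.147). In windows of 1 Mb, 283 held 1 domain, 62 held 2, 19 held 3, 4 held 4 and 2 held 5. The fullest, singled out after their values were seen, were chromosome 10 from 79 to 80 Mb, with 5 domains among 47 partnered peaks, and chromosome 11 from 69 to 70 Mb, with 5 among 43. The chromosome 10 window holds the domain with the fifth highest replicate 1 fold and one of those with 6 replicate 1 peaks.

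**Figure D5:**
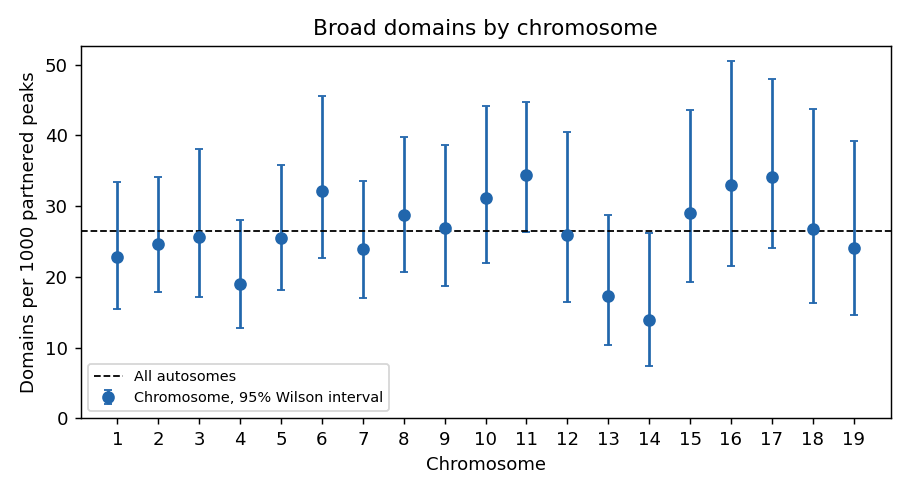
Domains per 1000 partnered replicate 2 peaks on each autosome (points) with 95% Wilson intervals (bars), and the value over all autosomes (dashed line, 26.4). Chromosome 11 is highest at 34.4 and chromosome 14 lowest at 13.9, and nearly all intervals include the dashed line.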

How the data were processed

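The members, comparisons and lists were chosen with earlier results of these data known. Per the labels' protocols, tagmentation on beads made the libraries. Bowtie2 2.1.0, MACS2 2.1.1 and mm9 are named per the submitters' processing notes; which control served which sample is not given in the sources used here. The 2 deposited lists have 10 columns. The deposited fold enrichment is a ratio of summit to background, each with 1 added. The deposited significance is −log10 of the p-value and of the q-value at the summit, with a smallest −log10 q of 1.32 and 1.31. The deposited score is 10 times −log10 q cut to a whole number. The deposited summit offset placed summits.

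Read numbers and control coverage were solved from fold and p-value under the caller's formulas, with backgrounds of 3.44 and 2.55 reads per 200 bp and a factor of 0.714 on replicate 2 ChIP reads. The largest misfit in log10 p was 2.0e-04. In replicate 2, 78 peaks had several solutions and the closest was taken. Of the 12818 replicate 2 local backgrounds above the genome-wide value, 100.0% lay within 0.002 of a multiple of 0.02 reads. That is the step of whole control reads in 10-kb windows for reads extended to 200 bp. The tolerance alone would place 20.0% there. On a grid with a step 2 times as large lay 92.2%, so most values do not single out the 10-kb step. The solving was checked on simulated data made with the same formulas. The authors' folds are not on 1 scale across lists. The best overlapping peak is that with the highest −log10 q.

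Regions named are the 10 widest, the 5 highest and 5 lowest in replicate 1, the 5 met by most replicate 1 peaks (ties by width), the 3 on each side of the threshold and the 5 closest pairs. Positions with a wide peak but no partner would also have been named, but there were 0. Alternatives were other widths, coverage, score, control coverage and partner rules, and the replicates alone or exchanged. Python 3.11.15, numpy 2.4.6, pandas 2.3.3, scipy 1.17.1 and matplotlib 3.10.9 were used.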

Additional observations from a re-analysis of the deposited data

Results flagged for a closer look

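Wide peaks also occurred on the X chromosome, which the choice of domains leaves out. The X chromosome held 4 replicate 2 peaks of 2500 bp or more among 507, 0.789% (95% Wilson interval 0.307 to 2.01), against 1.61% (1.47 to 1.75) on the autosomes, and these intervals overlap. The 4 were at 12856934 to 12859439, 71210685 to 71213746, 101175204 to 101177714 and 133274641 to 133277444, with replicate 2 folds of 10.8, 16.6, 9.55 and 7.94. Each had a replicate 1 partner, with folds of 9.46, 16.2, 7.66 and 5.41 and coverage of 77.1% to 92.3%.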

How the results depend on the processing

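The width threshold and the replicate that sets it moved most values; the partner rule, 50% coverage and leaving out domains with high control coverage moved none of the 13 results with an interval beyond it; the number of domains was 490, 463 and 472 in turn. No paired analysis was possible because the values come from 1 peak list per ChIP sample and no test was made. At a threshold of 2000 bp there were 1332 domains and at 3000 bp 189. The summit was then off centre by 25.8% and 36.5%, the summed replicate 1 width was 1951 and 2867 bp, 36.3% and 63.0% were met by several replicate 1 peaks, 11.4% and 43.9% had a replicate 1 peak of 2500 bp, and 36.9% and 13.2% had another domain within 100 kb. Per 1000 partnered peaks, chromosome 11 held 85.9 and 15.2, and chromosome 14 held 58.6 and 3.09. At 2000 bp 38.1% had a peak within 2 kb, and at 3000 bp the summit distance was 126 bp. With only replicate 2 peaks of at least the median score kept, fewer peaks were left as neighbours and as partnered peaks. Then 23.3% of domains had a peak within 2 kb and chromosome 11 held 46.5 per 1000. With the replicates exchanged there were 155 domains. They were covered to 99.9% by replicate 2 peaks of 3162 bp, 16.1% were met by several and 87.1% by one of 2500 bp, the fold in the other list was 12.3, summits were 89.0 bp apart and 34.4% off centre, and the read ratio was 1.22. Of them 34.2% had a peak within 2 kb and 9.03% a domain within 100 kb, and chromosomes 11 and 14 held 9.79 and 1.43 per 1000. With 1 replicate alone, the results ranged from 155 to 490 domains and 29.7% to 34.4% off centre. A peak lay within 2 kb of 34.2% to 46.3% and a domain within 100 kb of 9.03% to 19.8%. Per 1000 peaks of that list, with or without a partner, chromosome 11 held 8.77 to 20.97 and chromosome 14 held 1.29 to 8.57. This denominator is larger than that of partnered peaks, so these values are not comparable with those per 1000 partnered peaks. In a setting chosen after seeing the data, joining replicate 2 peaks 200 bp or less apart gave 721 domains, 326 of them made of more than one peak. The median domain rested on 40 and 55 summit reads.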
